A study of Mus musculus with 21 samples.

Results

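The newborn state of mouse lung epithelium was read as the departure of postnatal day 0.5 (P0.5) from the mean of embryonic day 18.5 (E18.5) and postnatal day 2 (P2), with 2 libraries per stage. Members were chosen by position: genes whose mean log2 value at P0.5 lay above or below both neighbouring stage means. Of the 23869 genes in the epithelial tables, 12957 met this rule, 6574 above both neighbours and 6383 below both. Of these, 3947 and 4343 were tested because they reached 3 value units in at least 2 epithelial libraries, and 4667 did not reach it.

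All 6 libraries came from C57BL/6 mice that carry a Col1a2-GFP transgene, in which a collagen gene promoter drives a green fluorescent protein in fibroblasts. Lungs were digested with collagenase, Dispase II and DNase I, and epithelial cells were sorted as negative for CD31, CD45, Ter119 and CD146 and positive for Epcam. The protocol adds a GFP-negative gate, which the E18.5 label does not name. Whether animals were pooled is not stated, and nothing says that replicates of a stage came from separate animals, so the p-values cover the variation among these libraries, which may be technical. Libraries were made by 3'SAGE-seq, in which poly(A) RNA is amplified and a brief 3' tag of each transcript is counted, on an Ion Proton sequencer. The same stages were profiled in Col1a2-GFP-positive, Epcam-negative fibroblasts of the same strain, and these serve as a second cell type.

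Birth replaces the fluid in the airspaces with air, and the alveolar epithelium absorbs that fluid through sodium channels and lowers surface tension with surfactant made by alveolar type 2 cells. A surge of glucocorticoid and catecholamine hormones precedes and accompanies delivery, and the supply of glucose from the placenta ends. Flat alveolar type 1 cells, secretory club cells and ciliated cells make up most of the remaining epithelium.

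The 6 libraries held 2282124 to 3725653 recovered reads each, with 15454 to 16620 genes above 0. Replicates differed by more than sampling noise, with a chi-square per degree of freedom of 7.67 at E18.5, 7.51 at P0.5 and 9.47 at P2. The 9 epithelial markers Epcam, Cdh1, Krt8, Krt18, Nkx2-1, Sftpc, Sftpb, Ager and Hopx were all above the low-value limit, and Epcam stood at 46.4 and 133 value units at E18.5, 62.8 and 56.8 at P0.5, and 125 and 226 at P2. Pecam1 (CD31) and Ptprc (CD45), markers of cells that the gates remove, were at 0 to 0.734 and 0 to 5.27. Other such markers were higher. The 13 endothelial markers in the tables summed to 143 to 217 value units and the 15 mesenchymal ones to 8790 to 14956. In joint CPM, defined below, Mcam (CD146) read 0.907 to 3.91, Kdr of the endothelial list 4.55 to 44.4, and Col1a2 13.3 to 59.6. In bulk libraries, fewer cells of a type and less RNA per cell cannot be told apart. The stage and the preparation of the P0.5 libraries cannot be told apart either, because no label gives a preparation date.

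The newborn contrast (log2 value + 1 at P0.5 minus the mean of the 2 neighbours on that scale) was tested with limma, and 12.0% of the 12143 tested genes were called at a Benjamini-Hochberg adjusted p under 0.05. Of the 1452 called genes, 691 (5.69% of those tested) lay above both neighbours, 733 (6.04%) lay below both, and 28 lay between them. The shares of 5.69% and 6.04% are the background for every list count below. The median size of the contrast was 1.24 among the 691 and 1.11 among the 733, against a median contrast of -0.03 over all tested genes. A contrast of more than 2 was reached by 83 higher and 46 lower genes. P0.5 was also the extreme of all 5 epithelial stages up to P28 for 526 of the 691 higher genes (76.1%, against 61.6% of all tested genes above both neighbours) and for 589 of the 733 lower genes (80.4%, against 63.2%). The called genes were chosen for a large departure of the same P0.5 values, which by itself raises these shares, so the gap is no separate test.

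Many calls were lost when each neighbour was tested by itself. When P0.5 had to differ from each neighbour by itself (the larger of the 2 single-step p-values, adjusted over all genes), 81 genes (0.667%) were higher and 65 (0.535%) lower. This rule is stricter, so a lost call need not mean that 1 neighbour carried the contrast. Both steps were larger than 1 log2 unit in 290 of the 691 higher and 268 of the 733 lower genes. Against E18.5 alone, 7.24% of genes were called higher and 7.09% lower, and against P2 alone 3.69% and 5.13%; these steps share the P0.5 libraries. The counts also rested on having both P0.5 libraries: without replicate 1 of P0.5 there were 138 higher and 195 lower genes, and without replicate 2 there were 114 and 104. At the edge of the rule, Itih4 lay just inside, with stage means of 14.3, 14.2 and 59.7 at E18.5, P0.5 and P2, and Apol7c just outside, at 0, 0 and 20.3.

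The largest rises were in genes of the protein synthesis machinery. Rps28, a protein of the small ribosomal subunit, measured 19.1 and 28.4 at E18.5, 507 and 609 at P0.5, and 53.8 and 137 at P2. The P0.5 libraries were far above the other 4, and the contrast was 3.60 ± 0.29 (SE; limma adjusted p = 6.1e-05). Rpl38, of the large subunit, was the most abundant of the leading genes, at 615 and 1397, then 14364 and 12728, then 1636 and 4499 (contrast 3.09 ± 0.34, adjusted p = 0.00019). Rplp2, an acidic protein of the ribosomal stalk, measured 39.6 and 111 at E18.5, 1444 and 1301 at P0.5, and 170 and 537 at P2 (contrast 3.26 ± 0.41). Its partner Rplp1, with Rps29, Rps27, its retrogene Rps27rt and Rpl37, completed the ribosomal genes among the 15 largest rises, with contrasts of 2.50 to 3.10. In all of these genes both P0.5 libraries exceeded the 4 neighbouring libraries, as they did in 14.2% of all tested genes. These genes were chosen for a large departure of the same P0.5 values, which by itself favours such separation. The comparison with 14.2% is therefore no separate test. Likewise, a lack of overlap given below for a called gene describes its values and adds no evidence to the call.

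The other leading genes had varied roles. Ndufa3, a subunit of respiratory complex I, measured 206 and 347 at E18.5, 2111 and 2618 at P0.5, and 421 and 970 at P2, a contrast of 2.50 ± 0.31. Cops6, a subunit of the COP9 signalosome, rose from 12.0 and 16.7 to 109 and 90.8 and stood at 18.7 and 30.6 at P2 (contrast 2.37 ± 0.23). In the same set were Snhg8, a noncoding host of a small nucleolar RNA (contrast 2.74), Tomm7, of the mitochondrial import pore (2.51), Mbnl1, a splicing regulator (2.37), and the unnamed locus LOC105242778 (2.80). Leaving out either P0.5 library ended the call of Tomm7, and the call of the other 14 genes held without any 1 of the 6 libraries.

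**Figure D1:**
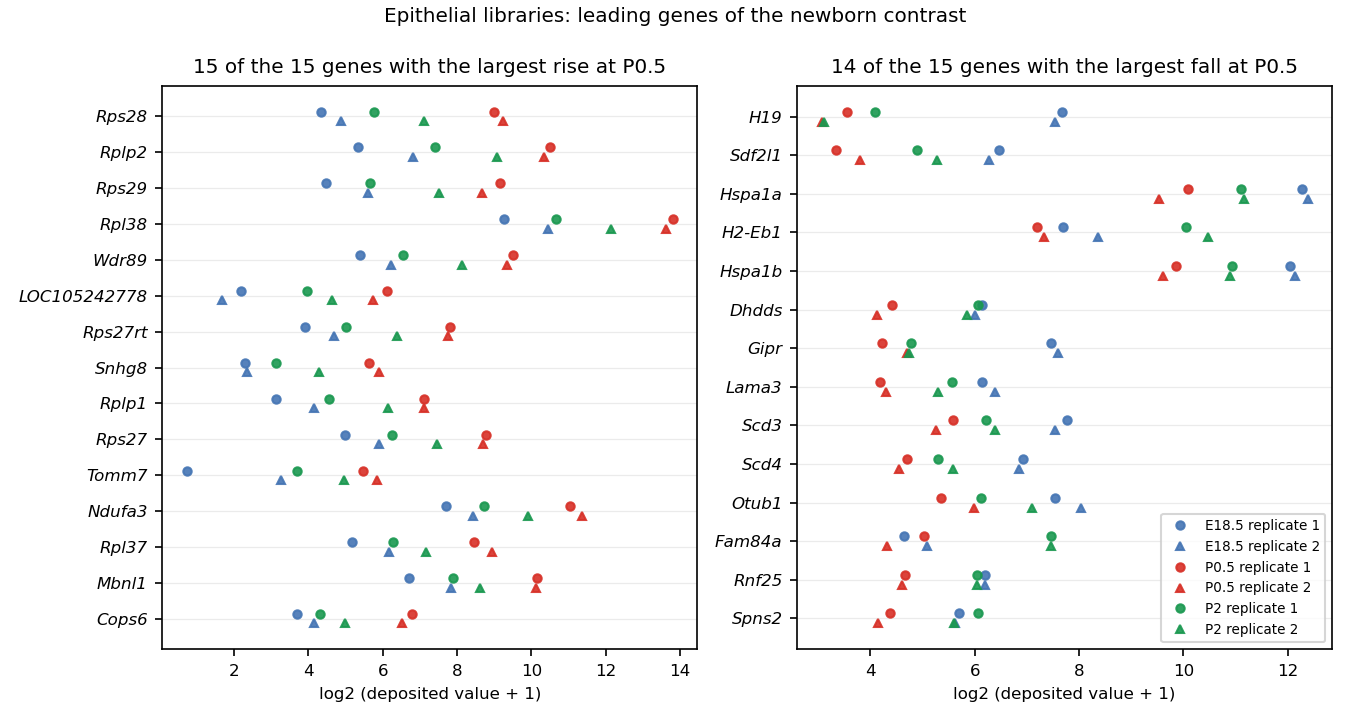
Log2 (deposited value + 1) in each of the 6 epithelial libraries for the 15 genes with the largest rise (left) and 14 of the 15 with the largest fall (right) at P0.5; colours give the stage and symbols the replicate. At left both P0.5 libraries lie right of the other 4 for each gene, and P2 replicate 2 lies above P2 replicate 1; at right H19 and Gipr are high at E18.5 alone, and Fam84a and H2-Eb1 at P2.

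Wdr89, which encodes a WD repeat protein, rose like Rplp2, from 41.2 and 73.5 to 730 and 654, with 92.1 and 280.1 at P2 (contrast 2.86 ± 0.35). In GENCODE vM21 (GRCm38) the last 225 bases of the Rplp2 transcript recur without a change in a Wdr89 transcript, so a tag from that stretch cannot be assigned to either gene. The final 30 coding bases of Rplp2, which lie inside the shared run, are shown with their places in both genes to make this visible:
Rplp2, exon on the plus strand at chr7:141451276-141451305: gatgacgacatgggatttggcttgtttgat
Wdr89, exon on the minus strand at chr12:75630974-75631003: gatgacgacatgggatttggcttgtttgat
Shared stretches of at least 30 bases in the last 500 bases were common among the ribosomal genes. Rps28 shared them with 17 annotated genes, Rps29 with 14, Rplp1 with 16 and Rps27 with 15. The levels of these genes are therefore uncertain. Ndufa3, Cops6 and Tomm7 shared no such stretch with any gene, while Mbnl1 shared them with 228 and, among genes that fell, Rnf25 with 88, Fam84a with 96 and Hspa1b with 199. Wdr89 shared such stretches with 1844 genes, not with Rplp2 alone, and Rps27rt with 137.

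Of 82 cytosolic ribosomal protein genes listed, 79 were tested, 40 were called higher and none lower. The higher share was 50.6%, against 5.69% of all tested genes. Their median contrast was 0.66, against -0.03 over all tested genes, and 8 of the 40 differed from each neighbour. The 40 called genes had a geometric mean of 52.1 and 93.4 value units at E18.5, 256 and 286 at P0.5, and 90.2 and 158 at P2, and of 184 and 168 at P7 and 146 and 140 at P28. The other 39 stood at 464 and 573, 599 and 638, and 467 and 551 at the same 3 stages. The calls fell to 19 without P0.5 replicate 1 and to 10 without replicate 2, with medians of 0.79 and 0.63.

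Transcript length and differences between replicates moved with this rise. The 40 called ribosomal genes had a median transcript length of 585 bases, against 816 for the 39 not called. Over all genes with an annotated length (93.3% of those tested), 25.5% of genes up to 500 bases were called higher, 8.49% from 500 to 1000, 5.09% from 1000 to 2000, 4.01% from 2000 to 3000 and 3.84% above that. Without ribosomal protein genes the share in the shortest class was 20.1%. Among the 15 largest rises, P2 replicate 2 exceeded replicate 1 in all 15 genes by a median log2 ratio of 1.29, and E18.5 replicate 2 exceeded replicate 1 in 14 by a median of 0.90, against 0.08 and 0.06 over all tested genes. The part of length and of these replicate differences in the rise was not tested.

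**Figure D2:**
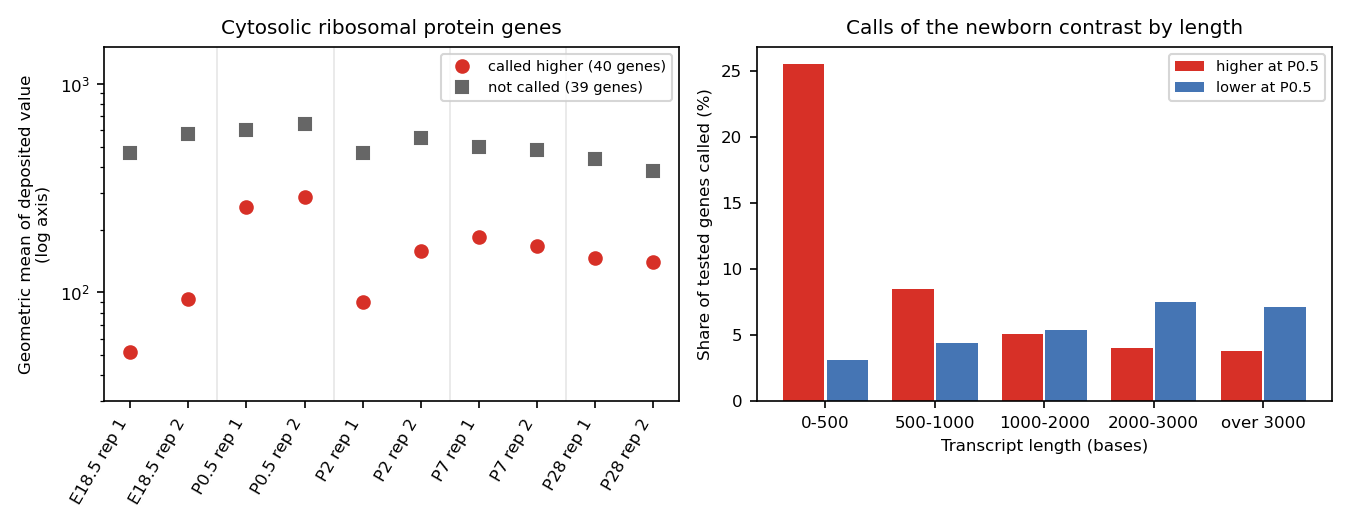
Left, geometric mean of the deposited value (log axis) in each epithelial library over the 40 ribosomal protein genes called higher and the 39 not called; the former reach 256 and 286 at P0.5 and lie between 52.1 and 158 at E18.5 and P2. Right, percentage of tested genes called higher or lower at P0.5 by transcript length; the higher share declines from 25.5% in the shortest class to 3.84% in the longest.

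Red cell transcripts varied in the same libraries. The 9 erythroid markers in the tables summed to 799 and 2880 value units at E18.5, 4111 and 6188 at P0.5, and 2060 and 7403 at P2. The P0.5 sums lay above those at E18.5 without overlap and between those at P2. Of 8 tested, all 8 had a positive contrast (median 1.03) and 2 were called higher (25%, against 5.69% of all tested genes). Both calls ended without either P0.5 library. The part of red cell RNA in the other rises was not tested.

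Respiratory chain subunits, which carry out oxidative phosphorylation in mitochondria, included 15 higher and no lower genes among 70 tested, with a median of 0.42. The higher share was 21.4%, against 5.69% of all tested genes. Uqcrfs1, the Rieske iron-sulfur protein of complex III, measured 34.1 and 32.2 at E18.5, 109 and 97.0 at P0.5, and 35.6 and 49.1 at P2, and rose against each neighbour (contrast 1.44 ± 0.18, each-neighbour adjusted p = 0.015). Its P0.5 values were above those of the other 4 libraries. Cox7c of complex IV and Atp5k of the ATP synthase also differed from each neighbour, with contrasts of 2.10 and 3.02 at levels of at most 30.3 and 15.8 units, and leaving out either P0.5 library ended the call of Cox7c. The called subunits had a median transcript length of 540 bases and the uncalled ones 745. Only 3 subunits were called without either 1 of the P0.5 libraries.

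Of 15 tested glucocorticoid-responsive genes, 5 were higher (Errfi1, Zbtb16, Mt2, Klf9 and Fkbp5) and none lower, with a median of 0.47. The higher share was 33.3%, against 5.69% of all tested genes. Errfi1, a feedback inhibitor of the EGF receptor, measured 107 and 113 at E18.5, 334 and 353 at P0.5, and 186 and 204 at P2, with no overlap between stages (contrast 1.23 ± 0.14, adjusted p = 0.00024). Klf9, a zinc finger factor, measured 9.73 and 13.6, then 30.1 and 28.3, then 8.20 and 8.24 (contrast 1.49 ± 0.23). These 2 genes differed from each neighbour. Fkbp5, which restrains the glucocorticoid receptor, was carried by P2: it stood at 25.6 and 27.1 before birth and 38.6 and 36.8 at P0.5, and at 1.82 and 4.28 at P2 (adjusted p = 0.43 for the step from E18.5). Zbtb16 had the same shape (adjusted p = 0.27 for that step), whereas Mt2, a metallothionein, was carried by E18.5 (adjusted p = 0.074 against P2).

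Immediate early genes, which are transcribed within minutes of a stimulus, included 5 higher and no lower members among 24 tested (median 0.34). The higher share was 20.8% here and 21.4% in the cAMP list below, against 5.69% of all tested genes. Egr1 measured 131 and 147 at E18.5, 254 and 266 at P0.5, and 144 and 151 at P2, and Cyr61, a matricellular target of YAP signalling, measured 314 and 286, then 531 and 559, then 288 and 310.4. Both rose against each neighbour, with contrasts of 0.86 ± 0.14 and 0.86 ± 0.15, and their P0.5 values overlapped with no other stage. Without P0.5 replicate 2, the adjusted p of Cyr61 was 0.065. Jun, Btg2 and Fosb were called at contrasts of 0.52 to 0.65 and lost the call without either P0.5 library, which left 2 and 1 called genes in the list. Of 14 cAMP-responsive genes, 3 were called higher (Crebrf, Nr4a2 and Fosb), none differed from each neighbour, and 0 were called without either P0.5 library. The tissue was digested before the sort, and the part of dissociation in these genes was not tested.

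Genes against oxidative damage included 3 higher (13.6%, against 5.69% of all tested genes) and no lower among 22 tested, with a median of 0.15. Txn1, the cytosolic thioredoxin, measured 17.8 and 25.9 at E18.5, 58.8 and 77.2 at P0.5, and 17.3 and 28.7 at P2 (contrast 1.58 ± 0.24, each-neighbour adjusted p = 0.023). Its P0.5 libraries were above all others, and without P0.5 replicate 2 the adjusted p was 0.054. Prdx6, a peroxiredoxin that also remodels surfactant phospholipid, measured 114 and 99.1, then 165 and 185, then 59.7 and 63.6 (contrast 1.10 ± 0.15). Sod1 was the other called gene (0.83). Fatty acid oxidation had 3 higher genes of 26 (11.5%; Cpt1a, Acot1 and Acot2; median 0.31). Autophagy had 3 higher (20%; Atg14, Gabarapl2 and Atg12) and 1 lower (6.67%; Atg5) of 15. None of these genes of the 2 lists differed from each neighbour. Without either P0.5 library limma called 0 genes higher in both lists, Acot2 and Atg12 kept the call in 0 of the 6 fits that leave out a library, and Acot1 and Atg14 in 1. Of 14 genes of the FoxO and insulin withdrawal list 1 was higher (7.14%; Cited2), and of 11 urea cycle and arginine genes 1 was higher (9.09%; Arg2). These shares are near the 5.69% of all tested genes, and both calls ended without either P0.5 library.

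The 15 largest falls were of a different kind. Dhdds, which makes the dolichol backbone for protein glycosylation, measured 69.1 and 63.1 at E18.5, 20.2 and 16.4 at P0.5, and 66.1 and 56.7 at P2. The neighbours lay together and both P0.5 libraries below them (contrast -1.75 ± 0.19, adjusted p = 0.00019). Rnf25, a ubiquitin ligase, had a like course at 72.3 and 72.3, then 24.2 and 23.5, then 65.2 and 64.6 (contrast -1.48 ± 0.18). Spns2, a sphingosine-1-phosphate transporter, and Lama3, a laminin chain of epithelial basement membrane, fell by 1.48 and 1.60 and also differed from each neighbour.

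Some of the largest falls came mostly from 1 neighbour. H19, an imprinted noncoding RNA of the fetus, measured 204 and 184.0 at E18.5, 10.6 and 7.35 at P0.5, and 16.0 and 7.58 at P2, so P0.5 and P2 overlapped (each-neighbour adjusted p = 1). Its call was lost without either P0.5 library, as was that of Otub1, a deubiquitinase. Gipr, the receptor of an incretin hormone, was likewise at 175 and 193 before birth and at 17.6 to 26.4 in the 4 libraries after it. H2-Eb1, an MHC class II chain, measured 205 and 329, then 145 and 160.1, then 1067 and 1412. P0.5 lay below both neighbours without overlap, and its contrast of -1.89 came mostly from P2 (each-neighbour adjusted p = 0.14).

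Heat shock genes, whose products refold proteins, included 6 lower and no higher members among 19 tested, with a median of -0.47 and 2 positive values. The lower share was 31.6%, against 6.04% of all tested genes. Hspa1a, an inducible Hsp70, measured 4937 and 5351 at E18.5, 1086 and 744 at P0.5, and 2202 and 2279 at P2, with no overlap (contrast -1.92 ± 0.28, adjusted p = 0.0012). Hspb1, a small heat shock protein, measured 5848 and 5622, then 1787 and 1663, then 2486 and 2770.2 (contrast -1.17 ± 0.20); without P0.5 replicate 2 its adjusted p was 0.052. The other 4 were Hspa1b (-1.77), Hsph1 (-1.29), Hspa8 (-0.77) and Stip1 (-0.69). None of the 6 differed from each neighbour, and 3 and 2 genes of the list were called without P0.5 replicates 1 and 2.

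Upstream sequence is shown for the 3 lower heat shock genes whose promoter entries held the letters described next. The windows are from RefSeq promoters of GRCm38.p6, and capitals mark the heat shock core letters GAANNTTC, which read the same on both strands:
Hspa1a, minus strand, chr17:34972228-34972285: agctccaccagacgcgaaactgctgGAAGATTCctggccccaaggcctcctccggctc
Hspa1b, minus strand, chr17:34959310-34959367: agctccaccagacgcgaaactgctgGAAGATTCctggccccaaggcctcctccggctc
Hspb1, plus strand, chr5:135887777-135887834: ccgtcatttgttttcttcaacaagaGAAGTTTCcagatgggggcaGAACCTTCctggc
One match starts at position -104 from the annotated start in Hspa1a and Hspa1b, whose windows agree at all 58 bases. Hspb1 holds 2 matches, at -117 and -97. Of the 6 lower heat shock genes, 5 had a promoter entry and 3 of these held the letters within 250 bases upstream; of the 13 not called, 10 had an entry and 4 held them. The letters occur in 6.69% of all promoter entries of that length. These matches describe the sequence and are not evidence of binding.

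Of 22 tested genes of the unfolded protein and amino acid response, 4 were higher and 6 lower (median -0.17). These are shares of 18.2% and 27.3%, against 5.69% and 6.04% of all tested genes. The lower genes included Calr, a calcium-binding chaperone, and Psat1, of serine synthesis. Sdf2l1, part of an endoplasmic reticulum chaperone complex, measured 86.9 and 76.7, then 9.18 and 13.0, then 28.7 and 37.9, and fell against each neighbour (contrast -2.15 ± 0.29). Pdia6 and Pdia3, disulfide isomerases, fell by 0.70 and 0.73, and Xbp1, a transcription factor of the unfolded protein response, by 1.06. Herpud1, of the degradation machinery at that membrane, rose against each neighbour, at 138 and 116 before birth, 220.3 and 217 at P0.5 and 96.2 and 113 at P2 (contrast 0.92 ± 0.15). Hsp90b1, Dnajb11 and Pdia4 were also called higher, at 1.33, 1.11 and 0.83. Without P0.5 replicate 1 there were 1 higher and 3 lower genes, and without replicate 2, 1 of each.

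Of 34 tested fatty acid and sterol synthesis genes, 4 were lower (Scd1, Fasn, Fads1 and Me1) and 1 higher (Fdps), with a median of -0.28. These are shares of 11.8% lower and 2.94% higher, against 6.04% and 5.69% of all tested genes. Fasn, the fatty acid synthase, measured 342 and 349 at E18.5, 115 and 130.4 at P0.5, and 264 and 193 at P2 (contrast -1.18 ± 0.16, each-neighbour adjusted p = 0.036). Scd1, the main lung desaturase for palmitate and stearate, measured 1855 and 2109, then 586 and 496, then 1077 and 1105 (contrast -1.44 ± 0.16). Both genes were lowest in the P0.5 libraries without overlap, and Scd3 and Scd4 were among the 15 largest falls at -1.56 and -1.55. Transcripts of Scd1 share stretches with Scd3 and Scd4, so tags of these genes may be shared. Fdps, which makes farnesyl diphosphate for sterols, went the other way, from 23.03 and 32.8 to 83.4 and 78.6 and then 30.5 and 31.3 (contrast 1.44 ± 0.20). Glycolysis and hypoxia genes had 2 lower members of 26, Hk2 and Pfkp (7.69%, near the 6.04% of all tested genes), with a list median of -0.33. Neither gene differed from each neighbour, and both calls ended without either P0.5 library.

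**Figure D3:**
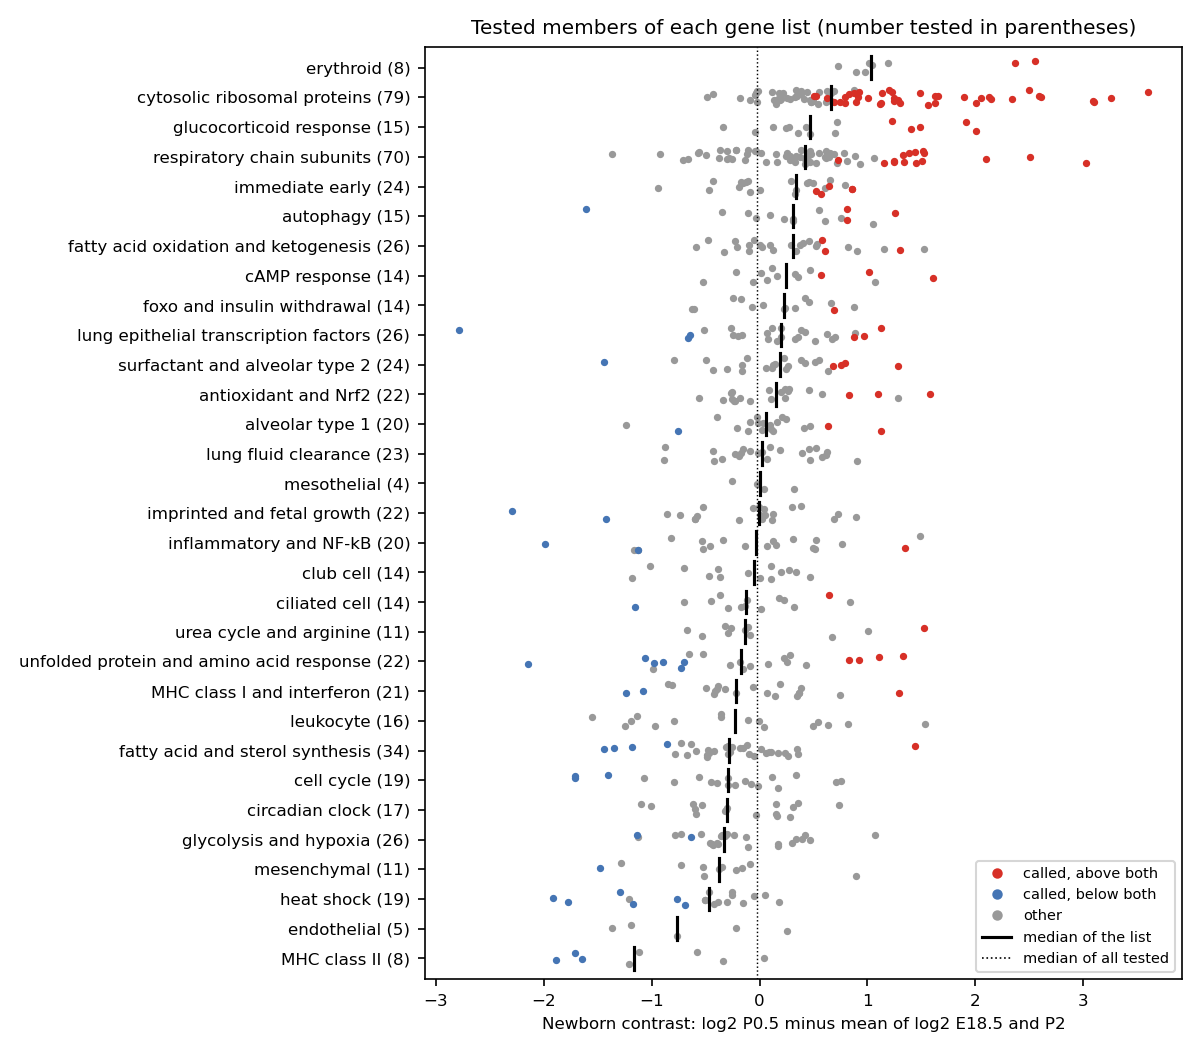
Newborn contrast (log2) of each tested member of 31 gene lists, ordered by the list median (black bar); red and blue points were called above or below both neighbours and the dotted line is the median of all tested genes. Ribosomal protein genes spread to 3.60, and the heat shock and MHC class II lists have their called members at left.

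MHC class II genes, which present peptides to helper T cells, had 3 lower members of 8 (H2-Eb1, H2-Aa and H2-Ab1; median -1.16). The lower share was 37.5%, against 6.04% of all tested genes, and none of the 3 differed from each neighbour. H2-Aa and H2-Ab1 were low, at 1.75 and 3.04 and at 1.40 and 3.32 joint CPM at P0.5. At E18.5 they read 3.17 and 4.17 and 3.49 and 5.07. Against E18.5 alone the adjusted p was 0.039 for H2-Eb1, 0.13 for H2-Ab1 and 0.26 for H2-Aa. Leukocyte markers in the tables summed to 361 and 620 at E18.5, 674 and 642 at P0.5, and 511 and 1296 at P2. Much of this was Lyz2, at 164 and 139 joint CPM at E18.5, 374 and 380 at P0.5, and 319 and 439 at P2. Cd68, of the same list, and Ptprc read 0 to 0.277 joint CPM at P0.5 and 0 to 5.39 at E18.5 and P2. The part of leukocytes was not tested. Of 16 leukocyte markers tested, limma called none beyond both neighbours, against 1 higher and 3 lower at an unadjusted p under 0.05; edgeR called 1 higher and DESeq2 1 lower. Without P2 replicate 2 limma called 5 higher, and without P2 replicate 1 it called 2 lower. Psmb8, an immunoproteasome subunit for MHC class I peptides, measured 156 and 158, then 82.6 and 65.9, then 169 and 148, and fell against each neighbour (contrast -1.08 ± 0.16). With Tap2, the peptide transporter (-1.24), it made 2 lower members of 21 (9.52%, against 6.04% of all tested genes), beside 1 higher (4.76%; Ifi27l2a), and Tap2 lost its call without P0.5 replicate 2 and Ifi27l2a without either P0.5 library. The NF-kB subunits Nfkb2 and Relb were lower (-1.12 and -1.99) and the chemokine Ccl20 higher (1.35) among 20 inflammatory genes, beside 6.04% lower and 5.69% higher over all tested genes. Relb and Ccl20 were low, at 1.05 and 4.98 and at 4.20 and 5.53 joint CPM at P0.5. Relb lost its call without P0.5 replicate 1 and Ccl20 in 5 of the 6 fits that leave out a library.

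Of 19 tested cell cycle genes, 3 were lower (Tyms, Nusap1 and Kif11; median of the list -0.30), all below 21 value units, and none was called without either P0.5 library. Among 22 imprinted and fetal growth genes, H19 and Fstl1 were lower (9.09%, against 6.04% of all tested genes), with a list median of -0.0018, and limma called 0 without P2 replicate 1; Fstl1, a secreted follistatin-like protein, was at 8516 and 7966 at E18.5 and at 1324 to 1904 in the 4 libraries after birth. Mycn, a growth-promoting transcription factor of lung progenitors, measured 9.08 and 18.6 at E18.5, 0.367 and 1.70 at P0.5, and 17.8 and 7.25 at P2. It was lower than each neighbour (contrast -2.78 ± 0.44, each-neighbour adjusted p = 0.024), on the 1 and 6 reads that the P0.5 libraries held.

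Calls among cell identity genes of the lung epithelium stand beside 5.69% higher and 6.04% lower over all tested genes. Of the surfactant and alveolar type 2 genes 16.7% were called higher and 4.17% lower, and of the alveolar type 1 genes 10% and 5%. Of the lung transcription factors 11.5% were called each way. Ciliated cell genes, at 7.14% each way, were near the shares of all tested genes. Of 24 surfactant and alveolar type 2 genes, 4 were higher (Sftpc, Lyz1, Sfta2 and Muc1) and 1 lower (Scd1), with a median of 0.19. Without either P0.5 library limma called 0 of them higher. Sftpc, surfactant protein C, measured 4059 and 3448 at E18.5, 9059 and 9932 at P0.5, and 7671 and 9344 at P2, so P0.5 and P2 overlapped and the contrast of 0.75 came mostly from E18.5. Of 20 alveolar type 1 genes, Hopx and Lmo7 were higher and Ager lower, and without P0.5 replicates 1 and 2 there were 1 and 0 higher and 0 lower. Of 14 club cell genes limma called none beyond both neighbours (2 lower at an unadjusted p under 0.05; none by edgeR and 1 lower by DESeq2). Of 23 lung fluid clearance genes it also called none (4 higher and 1 lower unadjusted; 3 higher by edgeR and 1 by DESeq2). Scnn1a, a subunit of the epithelial sodium channel, measured 2385 and 2559 at E18.5 and 2398 and 2541 at P0.5, which overlap, and 1149 and 937 at P2. Ciliated cell genes had Tppp3 higher and Cdhr3 lower of 14, and both calls ended without either P0.5 library. Among 26 lung transcription factors, 3 were higher (Tead1, Hopx and Tfcp2l1) and 3 lower (Nkx2-1, Cebpb and Mycn), with a median of 0.20; without P0.5 replicates 1 and 2 there were 2 and 0 higher and 1 and 1 lower. Nkx2-1, which specifies lung epithelium, measured 1497 and 1589 at E18.5, 933 and 885 at P0.5, and 1218 and 1467 at P2. Its P0.5 values were the lowest without overlap (contrast -0.66 ± 0.15, adjusted p = 0.011), and the call ended without either P0.5 library. Tead1, a partner of YAP, rose against each neighbour from 32.4 and 36.0 to 71.2 and 63.1, then 36.0 and 30.6 at P2 (contrast 0.97 ± 0.19); its call ended without either P0.5 library.

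Other lists showed few calls or none. Of 17 circadian clock genes limma called none (1 higher and 4 lower at an unadjusted p under 0.05; none by edgeR or DESeq2), with a median of -0.30. Mesenchymal markers had 1 lower gene of 11 (9.09%, against 6.04% of all tested genes), Col3a1, whose call ended without either P0.5 library. The sum of these markers was 9104 and 8789.9 at P0.5 against 10844 to 14956 at E18.5 and P2. The endothelial (5 tested) and mesothelial (4 tested) lists had none by limma, edgeR or DESeq2, against 2 lower endothelial genes at an unadjusted p under 0.05. Mesothelial sums fell along the course, from 7403 and 7714 to 4029 and 3898 and then 2273 and 2028. Their part in the lower genes was not tested.

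Fibroblasts of the same stages had a newborn contrast of their own, whose stage means come from fibroblast libraries alone. Their calls came from the joint fit of 20 libraries, so the epithelial libraries entered the estimate of spread. Calls shared between the cell types are therefore not independent. Reads of both cell types were scaled together over 20004 shared genes as CPM with TMM factors (joint CPM) for this comparison. In fibroblasts 5.92% of 13386 tested genes were called above both neighbours and 6.06% below. Of 677 higher epithelial genes tested in both, 215 were also called higher in fibroblasts, 31.8% of the epithelial and 32.4% of the 663 fibroblast genes, against 5.59% of all genes in both fits. Of 719 lower genes, 171 were shared, 23.8% of the epithelial and 23.4% of the fibroblast genes, against 6.17%. Called on the opposite side in fibroblasts were 3 and 11 genes. Ribosomal protein genes had 30 higher and 1 lower of 79 in fibroblasts (median 0.58), immediate early genes 12 higher of 24 (median 0.91), glucocorticoid-responsive genes 6 higher of 15 (median 0.86) and heat shock genes 4 lower of 19. A change at birth and a feature common to the P0.5 preparations of both cell types cannot be told apart.

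The difference between the cell types was tested directly as an interaction, and 3.17% of genes were called, 203 (1.52%) with a higher contrast in epithelium and 221 (1.65%) with a lower one. Without P0.5 epithelial replicates 1 and 2 there were 77 and 120 such genes. Among the higher and lower epithelial genes tested in both cell types, 63 (9.31%) and 82 (11.4%) had a called difference. These genes were chosen by the epithelial contrast that enters the interaction, so their shares cannot be compared with the 3.17% of all genes. Dhdds differed by this test: in joint CPM the fibroblast libraries read 63.5 and 77.4 at E18.5, 50.9 and 43.4 at P0.5, and 50.01 and 51.8 at P2, and the epithelial contrast was lower by 1.38 ± 0.28 (limma interaction, adjusted p = 0.011). Prdx6 in epithelium was higher at P0.5 than at E18.5 and P2, while in fibroblasts it read 76.0 and 80.6, then 29.6 and 36.9, then 23.8 and 17.7 joint CPM (difference 1.40 ± 0.25, adjusted p = 0.0034). Tppp3, a tubulin polymerisation protein, rose far more in fibroblasts, from 86.2 and 112 to 1352 and 1598 and then 594 and 719, while the epithelial libraries read 2039 and 2058, 3344 and 3354, and 2182 and 2151 (difference -1.86 ± 0.20, adjusted p = 3.1e-05). Rps28 rose in both and more in epithelium (difference 1.39 ± 0.38, adjusted p = 0.048).

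**Figure D4:**
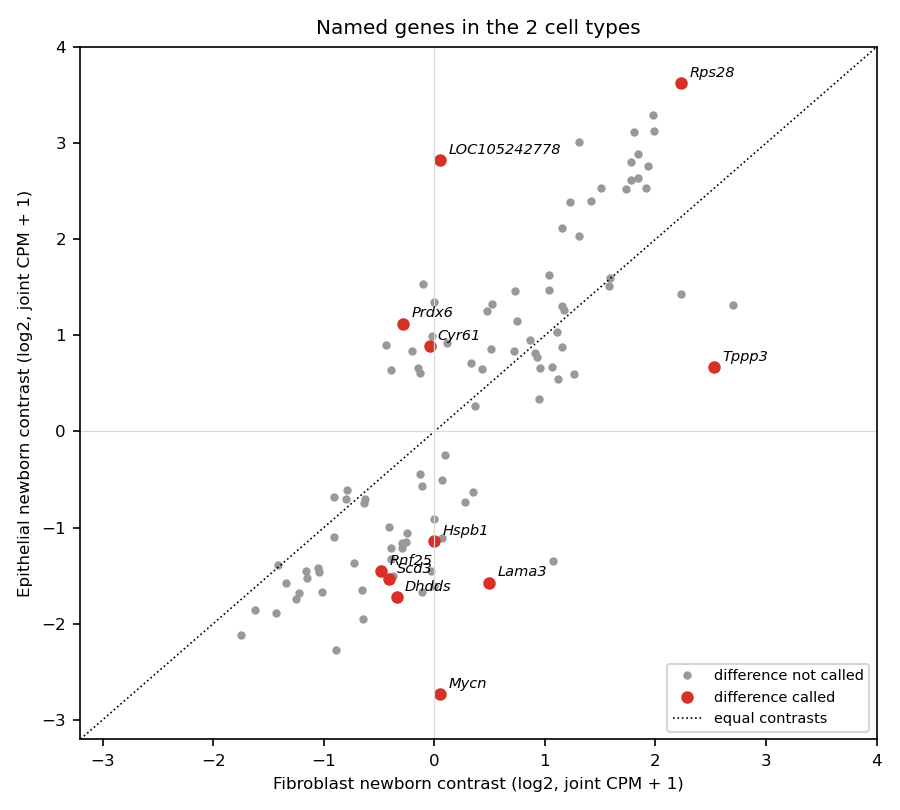
Newborn contrast in fibroblasts (x axis) and epithelium (y axis), both in log2 (joint CPM + 1), for 106 named genes; red points are the 11 genes whose difference between the cell types was called and the dotted line marks equal contrasts. Dhdds, Rnf25, Scd3, Hspb1, Lama3 and Mycn lie low with a fibroblast contrast between -0.48 and 0.50, and Tppp3 lies right of the line.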

How the data were processed

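Epithelial libraries of E18.5, P0.5 and P2 (2 each) were compared, within all 10 epithelial libraries of 5 stages. The authors deposited a signal for each gene. Its steps showed it to be reads over a constant of the library, and division by the value of 1 read gave whole reads for 100% of values, within 0.01 of a read. The submitters' processing notes list Bowtie2 2.2.5, R 3.4.0 and the mm10 build; the scaling and any use of strand in counting were not given in the sources used here. Genes at 3 or more in at least 2 libraries were tested with limma 3.58.1 (R 4.3.3) and a mean-variance trend on log2(value + 1), with 5 residual degrees of freedom; fold changes on this scale understate the change of low genes. A gene counted as higher or lower when the Benjamini-Hochberg adjusted p was under 0.05 and P0.5 lay beyond both neighbours. The joint fit used 20 libraries (10 residual degrees of freedom) of both cell types. Alternatives were 0.5 and 5 as pseudocount, no filter or a filter at 10, TMM scaling, edgeR 4.0.16 and DESeq2 1.42.0 on recovered reads, a replicate block, each library left out, and other neighbour rules. A count of 0 allows 3 reads, and such limits cover counting error only, since amplified reads are not independent molecules. The 15 largest rises and falls (mean of at least 50 units in the higher of P0.5 and the neighbours, without predicted genes, Rik genes and pseudogenes), up to 4 called genes per list by p, or 2 where none was called, and the sort genes were named; other called list members are named for completeness. Symbols were matched to GENCODE vM21 for positions and lengths and to RefSeq for promoters, where 71.3% of tested genes matched, too few for a comparison of motif shares. The members and gene lists were chosen with earlier results of these data known. A few named genes are not reported here.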

Additional observations from a re-analysis of the deposited data

Results flagged for a closer look

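Of 106 named genes, 11 had a newborn contrast that differed between epithelium and fibroblasts by the interaction test (limma on log2(joint CPM + 1), Benjamini-Hochberg adjusted over 13386 genes). Over all of these genes 3.17% were called. Most named genes were chosen by the epithelial contrast, which enters this test, so the 2 shares cannot be compared. The epithelial contrast was higher for Rps28 by 1.39, for the unnamed locus LOC105242778 by 2.77, for Prdx6 by 1.40 and for Cyr61 by 0.93. It was lower for Dhdds (difference -1.38), Lama3 (-2.07), Scd3 (-1.12), Rnf25 (-0.97), Hspb1 (-1.14), Mycn (-2.78) and Tppp3 (-1.86). Lama3 and LOC105242778 were near the floor of detection in fibroblasts: Lama3 read 0 to 1.22 joint CPM in the 6 fibroblast libraries of these stages, and LOC105242778 read 0 to 3.17. Mycn rested on 1 and 6 reads in the P0.5 epithelial libraries.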

How the results depend on the processing

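The counts of higher and lower epithelial genes and of genes that differ between cell types stayed within 1.5 times of 691, 733 and 424 under both other pseudocounts, the stricter filter, other scaling, edgeR (828, 624 and 340), DESeq2 (633, 626 and 403), a fit of the 6 libraries only (592 and 667) and both other neighbour rules. With no filter there were 428 lower genes. With P0.5 tested against each neighbour there were 81 higher and 65 lower. Leaving out each library gave 114 to 792 higher, 104 to 683 lower and 77 to 459 differing genes; the low ends are the fits without a P0.5 library, in which the remaining library is assumed to vary like the other stages. Many of the 94 named and called genes lost their call without a P0.5 library. The check of these calls did not ask that P0.5 stay beyond both neighbours. Fstl1 (contrast -1.55 to -1.30 in these fits) thus passed the check without P2 replicate 1, although the neighbour rule no longer held there. Signs reversed for 2 uncalled genes when a library was left out, Upk1b (-0.046 without E18.5 replicate 1 to 0.684 without E18.5 replicate 2) and Mcam (-0.087 without P2 replicate 2 to 0.592 without P2 replicate 1, and -0.063 without P0.5 replicate 2); the cause was not tested. The labels do not say whether replicate numbers pair the libraries. Same-numbered differences correlated at -0.06 to 0.07 between stages, which cannot exclude a preparation shared by libraries of the same number. With the replicate block there were 694 higher, 770 lower and 422 differing genes. At this depth, genes under 3 value units were left untested.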

Other observations

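The 81 genes that were higher than each neighbour, list members included, had a median contrast of 1.96, and the 65 that were lower had a median of -1.45. The following genes, in none of the gene lists, were chosen from them after their values were seen and carry no further test. Higher were Pmvk (contrast 2.15), which acts before Fdps in the mevalonate pathway, the calcium-binding proteins S100a6 (2.21) and S100a14 (2.01), the mitochondrial ribosomal proteins Mrpl14 (2.29) and Mrpl52 (2.65), and Gfpt1 (1.82), the entry enzyme of hexosamine synthesis. Lower were Ascl2 (-2.75), a bHLH transcription factor, Hdc (-1.55), which makes histamine, the lysosomal enzymes Naglu (-1.36) and Smpd1 (-1.28), and Pold1 (-1.37), a DNA polymerase subunit.

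A list of 95 factors that assemble ribosomes was added after the values were seen, and 83 of them were tested. Of these, 4 were higher (Las1l, Nip7, Nop56 and Urb2) and 11 lower, beside 5.69% higher and 6.04% lower over all tested genes. The higher count is near that share. The median contrast was -0.05, against -0.03 over all tested genes. Grwd1 measured 41.8 and 30.6 at E18.5, 8.08 and 9.61 at P0.5, and 35.6 and 40.2 at P2, a contrast of -1.94 ± 0.22. Mdn1 (-2.13), Mrto4 (-1.76) and Nat10 (-1.33) were also lower than each neighbour.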
